A study of Mus musculus with 39 samples.

Results

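The heat shock genes described here are the mouse genes whose symbols name them as heat shock proteins (Hspa, Hspb, Hspd, Hspe, Hsph and Hsp90) or heat shock factors (Hsf). Of the 22036 Ensembl genes in the first of 2 deposited count tables, 33 had such a symbol, and 32 of these were among the 21561 Ensembl genes found in both tables. The remaining gene, Hspa14, has a different Ensembl identifier in each table and was tested only within a table. They were sorted by role into stress-inducible genes (Hspa1a, Hspa1b, Hsp90aa1, Hsph1, Hspb1), constitutive cytosolic genes (Hspa8, Hsp90ab1, Hspa4, Hspa14), mitochondrial genes (Hspa9, Hspd1, Hspe1), endoplasmic reticulum genes (Hspa5, Hsp90b1, Hspa13), testis forms (Hspa1l, Hspa2, Hspa4l, Hspb9), muscle small heat shock proteins (Hspb2, Hspb3, Hspb6, Hspb7, Hspb8), the factors themselves (Hsf1 to Hsf5), and genes that carry the name but are not chaperones of these families in the strict sense (Hspa12a, Hspa12b, Hspb11, Hsf2bp).

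RNA was sequenced from the gubernaculum, the fetal and neonatal ligament that guides the testis toward the scrotum, and from the testis of male C57BL/6J mice. Wild-type (WT) mice, INSL3-KI mice, in which the cetacean coding sequence replaced that of mouse Insl3 at its own locus with the mouse regulatory sequence kept, and INSL3-KO mice, which lack the gene, were compared. The gubernaculum was taken at postnatal day 8 (P8; WT, INSL3-KI, INSL3-KO) and P23 (WT, INSL3-KI), and the testis at P8 and P23 (all 3 genotypes) and P40 (WT, INSL3-KI), with 3 biological replicates in each of 13 groups. No drug or operation preceded tissue collection, and both mutants serve as models of undescended testes (cryptorchidism).

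Heat shock proteins are chaperones. HSP70 proteins, fuelled by ATP, hold and refold unfolded chains, HSP90 proteins mature signalling proteins, HSP60 with its HSP10 lid folds proteins inside mitochondria, and small heat shock proteins bind unfolding proteins without ATP and are abundant in muscle. HSF1 is the factor that switches on the inducible genes when a cell is heated, by binding heat shock elements, which are arrays of the unit GAA and its reverse complement TTC in alternating orientation. The scrotal testis is cooler than the body core, and male germ cells make their own HSP70 and HSP90 forms during meiosis and spermatid development.

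The promoters of 5 of these genes are shown because the genes fall into the groups that the results turn on. Hspa1a and Hspa1b are the near-identical inducible HSP70 genes, Hspa1l is the spermatid HSP70 gene that starts 547 bases from Hspa1a on the opposite strand, Hspb1 is the inducible small heat shock protein, and Hspe1 encodes mitochondrial HSP10. Sequences are RefSeq promoters on GRCm38.p6, written 5′ to 3′ on the strand of the gene, and capitals mark matches to GAANNTTC or TTCNNGAA (2 inverted units) or to GAANNTTCNNGAA or TTCNNGAANNTTC (3 units, each of which contains 2-unit matches). The first 4 are the 250 bases before the start of the gene, at chr17:34972157-34972406 (minus strand, Hspa1a), chr17:34959239-34959488 (minus strand, Hspa1b), chr17:34972453-34972702 (plus strand, Hspa1l) and chr5:135887669-135887918 (plus strand, Hspb1). The last is the stretch from 94 to 65 bases before the start of Hspe1, at chr1:55088054-55088083 (plus strand).
Hspa1a: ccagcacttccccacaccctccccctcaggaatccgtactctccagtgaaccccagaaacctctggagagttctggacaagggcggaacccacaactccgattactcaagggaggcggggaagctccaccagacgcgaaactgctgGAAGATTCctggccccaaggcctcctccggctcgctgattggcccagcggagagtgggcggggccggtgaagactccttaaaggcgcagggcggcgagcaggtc
Hspa1b: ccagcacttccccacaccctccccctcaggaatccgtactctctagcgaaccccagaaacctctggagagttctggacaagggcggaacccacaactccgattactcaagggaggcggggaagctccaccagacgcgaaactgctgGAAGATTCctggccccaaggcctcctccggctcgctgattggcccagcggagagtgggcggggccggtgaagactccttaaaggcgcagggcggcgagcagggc
Hspa1l: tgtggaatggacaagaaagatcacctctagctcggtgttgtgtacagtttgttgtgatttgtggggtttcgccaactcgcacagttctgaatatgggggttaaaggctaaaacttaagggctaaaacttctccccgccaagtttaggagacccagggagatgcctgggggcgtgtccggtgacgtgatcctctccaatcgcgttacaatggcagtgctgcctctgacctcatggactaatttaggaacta
Hspb1: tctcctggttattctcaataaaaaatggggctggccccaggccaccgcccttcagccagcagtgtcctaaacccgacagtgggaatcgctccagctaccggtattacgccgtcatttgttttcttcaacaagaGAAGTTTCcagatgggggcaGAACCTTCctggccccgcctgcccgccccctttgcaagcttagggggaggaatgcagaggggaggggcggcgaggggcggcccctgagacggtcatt
Hspe1: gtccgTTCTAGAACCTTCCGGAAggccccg

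Hspa1a and Hspa1b had the same element 104 bases before the start, and their windows were identical at 247 of 250 bases. Hspb1 had elements 117 and 97 bases before the start. Hspa1l, the neighbour of Hspa1a, had no match in these letters in the window shown. The Hspe1 element had 3 units. By the RefSeq starts it lies between the divergently transcribed Hspd1 and Hspe1, 89 bases before Hspe1 and 144 bases before Hspd1. In the GENCODE annotation the 5′ ends of the 2 genes overlap by 111 bases and the element falls within Hspd1. Of the 25 heat shock genes with a RefSeq promoter of 300 bases (250 before and 50 after the start), searched on both strands, 3 held 3 units (Hspd1, Hspe1, Hsph1) and 10 held 2 inverted units, whereas among all 32851 promoters of that length 0.603% held 3 units and 15.1% held 2. Counted by gene, 0.662% and 17% of the 27025 genes had any such promoter. A match describes these letters and is not a measured binding site.

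Libraries held 29861447 to 45260372 counts (median 36944626), of which 94.2% to 97.9% fell on genes in both tables and 0.519% to 1.18% on the heat shock genes. Levels below are CPM, counts scaled to a common library total, with edgeR's TMM factors within a tissue, which set most genes equal between libraries, and they are listed in replicate order. Insl3 itself, the gene altered in the mutants and a product of Leydig cells, had 2722 to 3524 counts in WT and 15 to 33 in INSL3-KI testes at P8, 20844 to 25238 and 52 to 84 at P23, and 20183 to 29799 and 443 to 511 at P40. In the testis libraries labelled INSL3-KO it had 0, 5 and 0 counts at P23 but 906, 804 and 613 at P8, which goes against the label at P8. In the gubernaculum the gene had at most 87 counts in any library and checks little. The first table holds all WT and INSL3-KI libraries except the WT testes at P23, and the second holds those and all INSL3-KO libraries, so comparisons across the 2 tables (INSL3-KO with WT at P8 in both tissues, INSL3-KI with WT at P23 in testis, and every INSL3-KI with INSL3-KO comparison) cannot tell genotype and table apart. The WT testes labelled P23 had summed elongating spermatid markers of 15538 to 17497 CPM, above the 9802 to 12305 at P40 and the values below 1 at P8, which does not follow the order of the labelled ages. Every comparison with WT testes at P23 rests on these libraries. Within the mutant groups 4 libraries stood apart by cell type markers. INSL3-KI testis replicate 1 at P40 had a summed spermatocyte marker level of 2499 CPM against 414 and 374 in the other replicates, replicate 2 at P8 had 1560 against 406 and 319, replicate 3 at P23 had 2373 against 4965 and 5021, and INSL3-KI gubernaculum replicate 2 at P23 had a smooth muscle marker level of 1672 against 12799 and 11500. The comparisons of INSL3-KI with WT that use these 4 libraries are given with and without them. Shares over all genes were not computed for the fits without them. For the other results that use them, the comparisons of INSL3-KI with INSL3-KO and of the INSL3-KI effect between ages, only ranges of counts with single libraries left out are given. WT libraries varied as well. In WT gubernacula at P8 the summed elongating spermatid markers were at 54.8, 14.4 and 0.85 CPM and the spermatocyte markers at 32.1, 14.3 and 4.68. In WT testes at P8 the summed fibroblast markers were at 4745, 7818 and 15140 CPM. Their part in the values below was not tested.

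In WT testes the testis forms and the alpha form of HSP90 rose steeply between P8 and P40, while Hspa1a, Hspa1b, Hspb1, Hspa8, Hsp90ab1, Hspd1 and Hspe1 fell. Without a call, Hspa5 (log2 fold change 0.90), Hspa4 (0.78), Hspa9 (0.66), Hsph1 (0.62) and Hsp90b1 (0.25) were higher in every P40 library and Hspa13 (−0.30) was lower. Hspa1l, the spermatid HSP70, stood at 4.69, 4.74 and 4.22 CPM at P8, at 986, 1119 and 1135 at P23, and at 1155, 1152 and 1055 at P40. The P8 libraries lay far below all later ones, and the rise from P8 to P40 was 237-fold (log2 fold change 7.89 ± 0.11 SE, n = 3 per group, adjusted p = 1.17e-08 by edgeR's quasi-likelihood test with Benjamini-Hochberg adjustment). Hspa2, the HSP70 of spermatocytes, went from 26.8, 20.1 and 22.8 CPM to 2412, 2463 and 2291 (log2 fold change 6.63), and Hspa4l, an HSP110-type exchange factor rich in germ cells, from 51.0, 32.8 and 32.8 to 1500, 1487 and 1308 (5.15). In each case the P8 and P40 ranges were separate. Hspb9, a small heat shock protein of germ cells, was below 0.5 CPM in every WT library at P8 and between 436 and 574 CPM at P40. With a call set at an adjusted p below 0.01 and a fold change of at least 2, 9 of the 30 heat shock genes tested rose from P8 to P40, where 31.9% of all genes tested did, and 9 fell, where 27.8% of all genes did. The other genes that rose were Hsf5, Hsf2bp, Hspb7, Hspb6 and Hsp90aa1 (log2 fold changes 8.86, 3.92, 3.34, 2.52 and 1.95).

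The genes that fell in WT testes over the same interval were Hspb8, Hspe1, Hspa1b, Hsp90ab1, Hspd1, Hspb1, Hspa8, Hspa1a and Hspa12b, with log2 fold changes from −2.99 (Hspb8) to −1.10 (Hspa12b). The median over the heat shock genes was 0.44 beside −0.03 over all genes. The exchange of forms could be read within a library from the deposited FPKM values, which are per length. Hsp90aa1 made up 19.9% to 23.6% of the summed FPKM of the cytosolic HSP90 pair in WT testes at P8, 84.8% to 85.9% at P23 and 80.5% to 82.6% at P40. The P8 share was below every later one. Hspa2 made up 1.32% to 1.70% of Hspa2 and Hspa8 together at P8 and 81.2% to 84.6% at P40. Hspa1l made up 4.42% to 5.42% of the Hspa1 trio at P8 and 97.2% to 98.3% at P40. By mean FPKM the leading heat shock genes of the WT testis at P40 were Hsp90aa1 (627 ± 23.4 SD, n = 3), Hspa2 (615 ± 8.46) and Hspb9 (512 ± 50.4), whose values for Hsp90aa1 and Hspa2 did not differ beyond their spread, followed by Hspa1l (295 ± 1.80) and Hsp90b1 (226 ± 3.18).

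**Figure D1:**
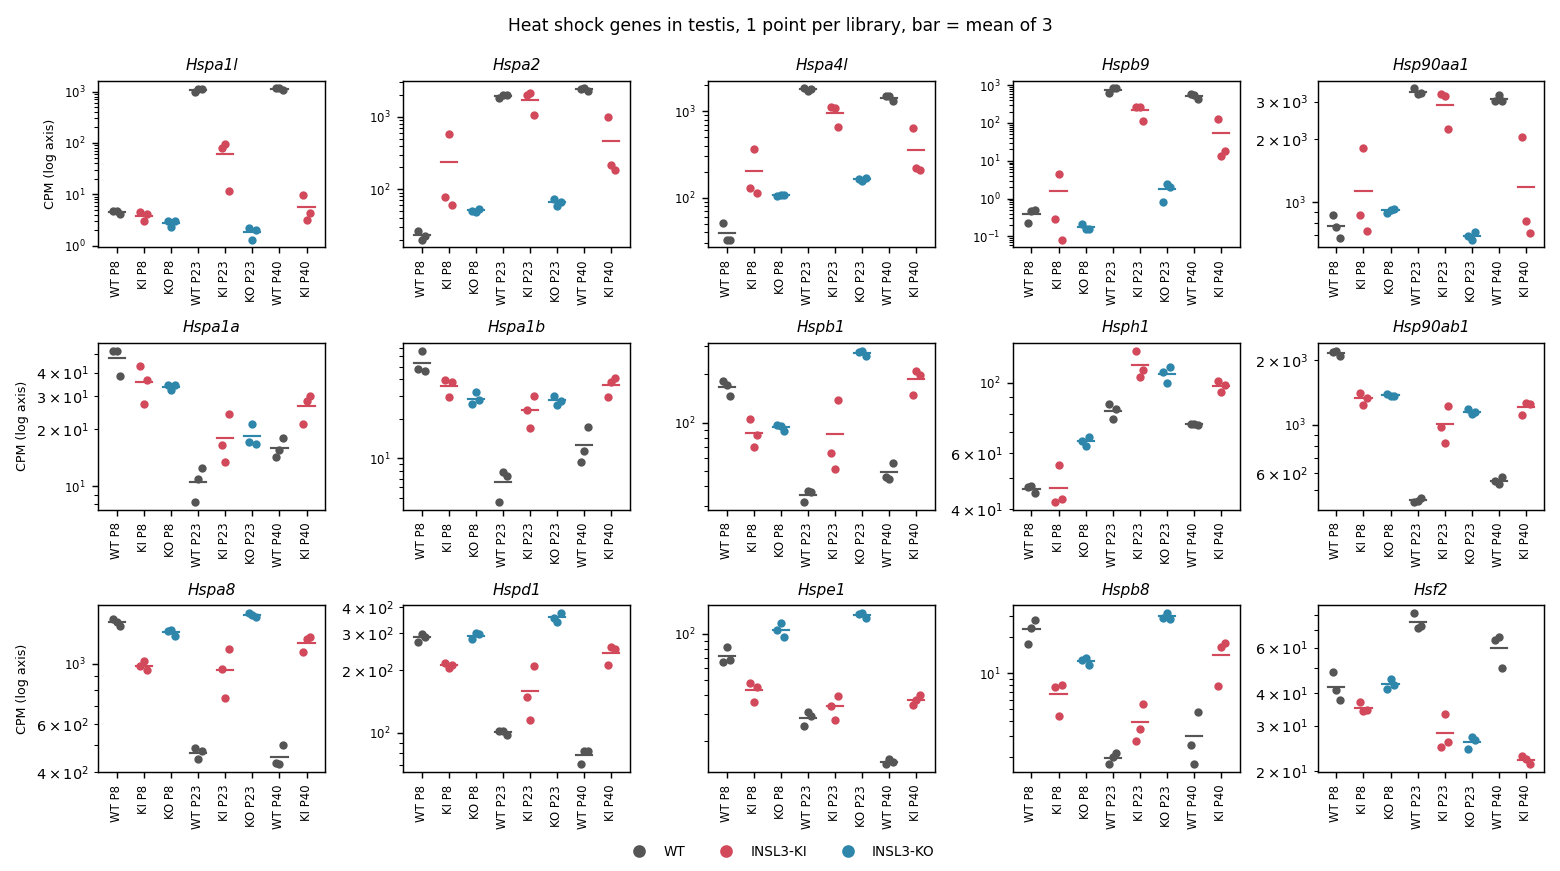
Normalised CPM (log axis) of 15 heat shock genes in each testis library, with 1 point per library, a bar at the mean of 3, and colours for WT, INSL3-KI and the libraries labelled INSL3-KO. The testis forms in the top row were high in WT at P23 and P40 and low in INSL3-KO at P23. Hspb1, Hspa8, Hspd1 and Hspe1 were higher in INSL3-KI than in WT at P40. These values are scaled with TMM factors, which set most genes equal between libraries. Scaled to Sertoli cell markers those 4 were not higher in INSL3-KI at P40.

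Under TMM scaling, INSL3-KI testes at P40 had lost almost all Hspa1l and had more Hspa8, Hsp90ab1, Hspd1 and Hspe1 but not more Hspa4 or Hspa9. Of the heat-inducible genes, Hspb1, Hspa1b, Hspa1a and Hsph1 were higher in every INSL3-KI library and Hsp90aa1 was lower. Hspa1l stood at 1155, 1152 and 1055 CPM in WT and at 9.76, 3.15 and 4.43 in INSL3-KI, without overlap, a 189-fold lower level (log2 fold change −7.56 ± 0.53 SE, edgeR quasi-likelihood adjusted p = 0.000192). Of 30 heat shock genes tested, 7 were called higher and 4 lower, where 25.6% and 22.1% of all genes were. The median log2 fold change was −0.10 beside 0.09 over all genes.

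Among the inducible genes, Hspb1 (HSP27) went from 45.8, 44.6 and 56.1 CPM in WT to 149, 210 and 199 in INSL3-KI at P40. The groups did not overlap, and the gene rose (log2 fold change 1.98 ± 0.21 SE, edgeR quasi-likelihood adjusted p = 0.000453), but the value was −0.30 once the libraries were scaled to equal sums of Sertoli cell markers. Hspa1b went from 9.43, 11.4 and 17.4 to 29.5, 38.4 and 41.4 CPM, again without overlap, and rose by 1.57 ± 0.28 on the log2 scale (edgeR adjusted p = 0.00295), against −0.70 under the Sertoli scaling. Its near copy Hspa1a, at 14.2, 15.5 and 17.9 in WT and 21.4, 28.3 and 30.0 in INSL3-KI, also had separate groups but stayed under the 2-fold limit (0.80 ± 0.19, edgeR adjusted p = 0.00923; −1.48 under the Sertoli scaling). Reads can be shared between these genes, since their coding sequences were 99.4% identical and 38.1% of the 150-base windows of the Hspa1a transcript occur unchanged in Hspa1b. Hsph1, the HSP110 partner of HSP70, was at 74.3, 74.5 and 73.7 in WT and at 102, 93.4 and 98.7 in INSL3-KI, a separate but small difference (0.45 ± 0.10, edgeR adjusted p = 0.00603; −1.79 under the Sertoli scaling). With library size only, Hspa1a (1.42) and Hsph1 (1.07) passed the 2-fold limit. Hsp90aa1 was lower in every INSL3-KI library, at 2031, 811 and 717 against 3035, 3217 and 3026, and did not pass the test (−1.35 ± 0.43, edgeR adjusted p = 0.027).

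The other genes that rose at P40 were Hspb8, a small heat shock protein that works with the co-chaperone BAG3 (log2 fold change 2.28), Hspd1 (HSP60, 1.68), Hspa8 (the constitutive HSC70, 1.45), Hspe1 (HSP10, 1.41) and Hsp90ab1 (the constitutive HSP90, 1.19). Each of these was at or below 0 under the Sertoli scaling, from −0.03 for Hspb8 to −1.08 for Hsp90ab1. For Hspd1 the WT libraries held 70.7, 82.1 and 82.2 CPM and the INSL3-KI libraries 210.3, 259 and 253, and for Hspa8 432, 426 and 502 against 1103, 1230 and 1250. Both genes were higher in every INSL3-KI library than in any WT library. Other constitutive genes had the opposite sign without a call, Hspa4 at −0.60 ± 0.17 SE (edgeR adjusted p = 0.0179) and the mitochondrial HSP70 Hspa9 at −0.65 ± 0.17 (edgeR adjusted p = 0.0138). Both were lower in every INSL3-KI library than in any WT library. The genes that fell beside Hspa1l were Hspb7 (−2.75), Hspa4l (−1.98, edgeR adjusted p = 0.00862) and Hsf2 (−1.38). Leaving out any library but INSL3-KI replicate 1 ended the call of Hspa4l (edgeR adjusted p from 0.0261 to 0.0317), and leaving out WT replicate 1 or 2 ended those of Hspb8, Hspa1b and Hsp90ab1 (edgeR adjusted p from 0.0105 to 0.0312). The endoplasmic reticulum genes Hspa5, Hsp90b1 and Hspa13 had 0 calls of 3.

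All 9 Sertoli cell marker genes were called higher in INSL3-KI testes at P40 (median log2 fold change 2.30), with summed levels of 2059 to 3016 CPM against 526 to 600 in WT, while the summed elongating spermatid markers were at 40.0, 3.23 and 6.07 CPM against 9802 to 12305 in WT. In whole tissue, fewer cells of a type and less RNA per cell cannot be told apart. Scaling to the Sertoli list shifted the median of all genes by −2.15 on the log2 scale, and under it 0 heat shock genes were called higher and 22 lower. This scaling moves all genes of a library by a common factor, and the 9 markers were themselves higher. Its signs show the choice of reference and do not tell the heat shock genes apart. Without scaling for composition (library size only) the median of all genes moved by 0.70. Replicate 1 of INSL3-KI decided several values, since it held 1006 CPM of Hspa2 and 128 of Hspb9 where the other replicates held 214 and 186, and 13.1 and 18. With it, Hspa2 (−2.33, edgeR adjusted p = 0.0205), Hspb9 (−3.27, edgeR adjusted p = 0.0169) and Hsf5 (−2.54, edgeR adjusted p = 0.0263) did not pass the test. Without it, 7 genes were called higher and 10 lower, the additional 6 being Hspb9, Hsf5, Hspa2, Hsf2bp, Hspb6 and Hsp90aa1 (log2 fold changes −4.97, −4.04, −3.50, −2.77, −2.35 and −1.94). The share of all genes called was not computed without replicate 1 or under the Sertoli scaling.

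**Figure D2:**
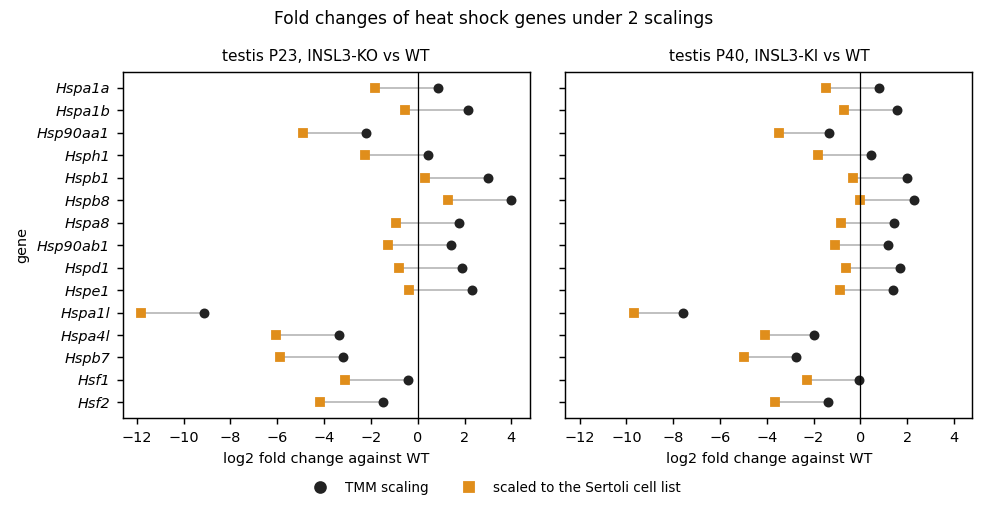
Log2 fold change against WT (x axis) of 15 heat shock genes in INSL3-KO testes at P23 and INSL3-KI testes at P40, under TMM scaling (dots) and with libraries scaled to equal sums of Sertoli cell markers (squares). Every gene moved to the left under the Sertoli scaling, so that at P40 no gene stayed above 0 and at P23 only Hspb1 and Hspb8 of those drawn did.

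At P23 the INSL3-KO testes had 18 heat shock genes past the test, with testis forms far below WT and the small heat shock proteins Hspb1 and Hspb8 far above WT. Of 30 genes tested, 7 were called higher and 11 lower, where 31.1% and 33.4% of all genes were, and the median log2 fold change was −0.23 beside 0.06 over all genes. Hspa1l stood at 986, 1119 and 1135 CPM in WT and at 2.27, 1.31 and 2.01 in INSL3-KO, 560-fold lower (log2 fold change −9.13 ± 0.13 SE, edgeR adjusted p = 2.39e-12). Hspb9 was 402-fold lower, at 634, 821 and 825 against 0.80, 2.44 and 2.08 CPM. For both genes no INSL3-KO library came near the WT range. The other genes that fell were Hsf5 (log2 fold change −6.40), Hspa2 (−4.80), Hsf2bp, a meiotic recombination protein that binds BRCA2 (−4.20), Hspa4l (−3.38), Hspb7 (−3.18), Hspb6 (−2.64), Hsp90aa1 (−2.21), Hsf2 (−1.47) and Hspa4 (−1.12). Hsp90aa1 held 3466, 3243 and 3307 CPM in WT and 692, 664 and 724 in INSL3-KO, and its share of the cytosolic HSP90 pair by FPKM was 31.0% to 32.8% in INSL3-KO against 84.8% to 85.9% in WT.

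Hspb8 was at 1.73, 2.0 and 2.16 CPM in WT testes at P23 and at 29.3, 32.0 and 28.7 in INSL3-KO, and rose by 3.99 ± 0.13 on the log2 scale (edgeR adjusted p = 5.61e-10). It was still called higher under the Sertoli scaling (1.31), as the only member. Hspb1 was at 31.8, 37.3 and 36.8 in WT and at 274, 281 and 261 in INSL3-KO, a rise of 3.01 ± 0.07 (edgeR adjusted p = 5.65e-11). Hspb1 and Hspb8 did not overlap between the genotypes. Hspe1 (log2 fold change 2.31), Hspa1b (2.13), Hspd1 (1.89), Hspa8 (1.75) and Hsp90ab1 (1.42) rose too, but under the Sertoli scaling they were negative, from −0.38 for Hspe1 to −1.26 for Hsp90ab1. Hspa1a, at 8.22, 10.9 and 12.5 in WT and 17.2, 21.5 and 16.7 in INSL3-KO, had separate groups and stayed under 2-fold (0.87, edgeR adjusted p = 0.000678; −1.81 under the Sertoli scaling). Hsph1 stayed under 2-fold as well (0.44, edgeR adjusted p = 6.61e-05; −2.24 under the Sertoli scaling). With library size only both passed it (1.51 and 1.08). The 9 Sertoli markers were all called higher here (median log2 fold change 2.72), and the Sertoli scaling shifted the median of all genes by −2.63. Their part in these values was not tested beyond that scaling.

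At P23 every INSL3-KI testis lay between the WT and the INSL3-KO libraries for Hspa1l, Hspb9 and Hspa4l, but not for Hspa2. Of 29 genes tested against WT, 3 were called higher and 5 lower, where 8.81% and 11.8% of all genes were, and the median log2 fold change was −0.11 beside 0.08 over all genes. Hspa1l was at 81.4, 93.9 and 11.4 CPM in INSL3-KI, below every WT library and above every INSL3-KO library, 17.2-fold lower than in WT (log2 fold change −4.11 ± 0.74 SE, edgeR adjusted p = 0.00593). Hspb9, at 263, 268 and 116, was also intermediate (−1.81, edgeR adjusted p = 0.00677), and Hspa4l, at 1106, 1089 and 656 against 1835, 1724 and 1780 in WT, was intermediate but did not pass the test (−0.89, edgeR adjusted p = 0.0246). Hspa2, the form of spermatocytes, was at 1982, 2110 and 1064 against 1815, 1974 and 1976 in WT, with overlapping groups (−0.15, edgeR adjusted p = 0.692). The other genes that fell were Hspb7 (−1.92), Hsf2 (−1.41) and Hspb6 (−1.05), and those that rose were Hspa1b (1.84), Hsp90ab1 (1.19) and Hspa8 (1.03), of which Hsp90ab1 and Hspa8 were negative under the Sertoli scaling (−0.15 and −0.32) and Hspa1b was not called (0.47, edgeR adjusted p = 0.168).

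Among the inducible genes at P23, Hspa1b went from 4.63, 7.83 and 7.35 CPM in WT to 23.2, 17 and 29.9 in INSL3-KI (edgeR adjusted p = 0.00422). Every INSL3-KI library was above every WT library, but under the Sertoli scaling neither this gene nor any other heat shock gene was called higher. Hspb1 (log2 fold change 1.28, edgeR adjusted p = 0.0277), Hspa1a (0.79, edgeR adjusted p = 0.0487), Hsph1 (0.49, edgeR adjusted p = 0.0197) and Hsp90aa1 (−0.19, edgeR adjusted p = 0.527) did not pass, and the first 3 were −0.21, −0.59 and −0.78 under the Sertoli scaling, while Hsp90aa1 was 0.27 with library size only. Replicate 3 had a summed Sertoli marker level of 2199 CPM against 1185 and 902 in the other replicates. Without it 2 genes were called higher and 4 lower, with Hspa8 (0.87) and Hspb6 (−0.88) under 2-fold. Leaving out any 1 library in turn gave 0 to 3 genes higher and 0 to 5 lower.

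Set directly against INSL3-KO at P23, 10 of 31 heat shock genes tested were called higher in INSL3-KI and 4 lower, where 25.2% and 13% of all genes were. The higher ones were led by Hspb9 (log2 fold change 6.92), Hsf5 (6.07), Hspa1l (5.07), Hspa2 (4.70) and Hsf2bp (3.84), followed by Hspa4l (2.54), Hsp90aa1 (2.06), Hspb6 (1.64), Hspb7 (1.32) and Hsf1 (1.03). The lower ones were Hspb8 (−2.95), Hspe1 (−2.0), Hspb1 (−1.69) and Hspd1 (−1.18), of which Hspd1 was 0.08 under the Sertoli scaling. This comparison and the 2 against WT share libraries.

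**Figure D3:**
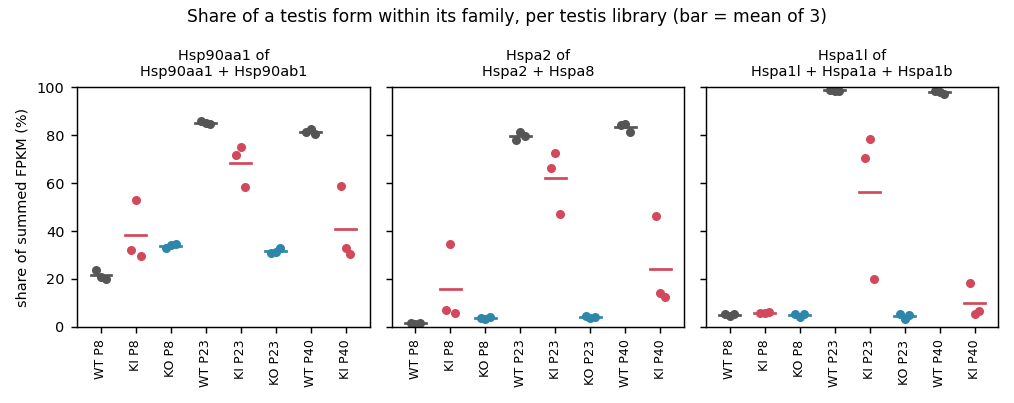
Share (%) that a gene took of the summed FPKM of its family in each testis library, with a bar at the mean of 3. The shares are those of Hsp90aa1 among the cytosolic HSP90 pair, Hspa2 beside Hspa8, and Hspa1l among the Hspa1 trio. Hspa2 and Hspa1l are testis forms, and Hsp90aa1 is a stress-inducible gene. The WT shares went from 19.9% to 23.6% (Hsp90aa1) at P8 to over 80.5% at P40, while the 3 INSL3-KI libraries at P40 were at 58.6%, 33.0% and 30.6%.

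At P8 few heat shock genes were called in INSL3-KI testes. Against WT, 1 of 31 genes tested was called higher in INSL3-KI and 1 lower, where 3.03% and 3.25% of all genes were. Hsf2bp rose, from 5.89, 4.67 and 3.98 CPM in WT to 19.5, 37.8 and 16.9 (log2 fold change 2.40 ± 0.34 SE, edgeR adjusted p = 0.00552), and Hspb8 fell, from 17.7, 24.2 and 28.2 to 7.73, 4.42 and 8.05 (−1.72 ± 0.30, edgeR adjusted p = 0.00849). Neither gene overlapped between the groups. None of the inducible genes passed the test (edgeR with Benjamini-Hochberg adjustment), with log2 fold changes of 0.62 for Hsp90aa1 (adjusted p = 0.178), 0.07 for Hsph1 (adjusted p = 0.646; −0.19 under the Sertoli scaling), −0.34 for Hspa1a (adjusted p = 0.235), −0.51 for Hspa1b (adjusted p = 0.0709) and −0.88 for Hspb1 (adjusted p = 0.0113). Replicate 2 carried 569 CPM of Hspa2 and 81.7 of Hsf5 where the other INSL3-KI replicates carried 78.2 and 60.9, and 8.30 and 7.28. Every INSL3-KI library was above the WT range of 20.1 to 26.8 (Hspa2) and 0.54 to 1.47 (Hsf5). With all libraries the differences were 3.39 (edgeR adjusted p = 0.0279) and 5.14 (edgeR adjusted p = 0.0171). Without replicate 2, Hsf5 (3.13), Hsf2bp (1.99), Hspa4l (1.73) and Hspa2 (1.66) were called higher and Hspb8 (−1.48) lower.

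In the P8 testis libraries labelled INSL3-KO, which carry Insl3 reads and come from the other table, 5 of 31 genes tested were called higher than in WT and 1 lower, where 5.44% and 8.37% of all genes were. The higher ones were Hsf5 (log2 fold change 2.31), Hsf2bp (1.95), Hspa4l (1.48), Hspa2 (1.16) and Hspb11, an intraflagellar transport protein (1.16), and the lower one was Hspa12b, a distant HSP70 relative of endothelium (−1.04). Hspa2 was at 50.9, 49.2 and 53.5 CPM in these libraries against 26.8, 20.1 and 22.8 in WT, without overlap. The inducible genes stayed under 2-fold, at −0.88 (Hspa1b), −0.81 (Hspb1), −0.47 (Hspa1a), 0.27 (Hsp90aa1; −0.08 under the Sertoli scaling) and 0.52 (Hsph1). Both mutant comparisons at P8 use the same WT libraries. The summed spermatocyte markers were at 38.8 to 82.1 CPM in WT, 406, 1560 and 319 in INSL3-KI, and 470.0 to 475 in the libraries labelled INSL3-KO, and their part in the result was not tested.

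Between ages, the INSL3-KI effect in the testis differed for 16 of 31 genes tested by the interaction term of an edgeR fit on both ages, 7 with a higher value at P40 than at P8 and 9 with a lower one, where 23.2% and 22.5% of all genes did. Hspb8 and Hspb1 had the largest positive differences, with effects of −1.72 and −0.88 at P8 beside 2.28 and 1.98 at P40.

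In the P8 gubernaculum the INSL3-KI allele came with lower levels of muscle small heat shock proteins and with higher levels of the inducible HSP70 genes and of Hspa2. Of 32 genes tested, 3 were called higher and 11 lower than in WT, where 14.4% and 9.7% of all genes were, and the median log2 fold change was −0.92 beside 0.02 over all genes. Hspb7, the small heat shock protein of heart and skeletal muscle, was at 223, 213 and 228 CPM in WT and at 45.1, 35.5 and 41.4 in INSL3-KI (log2 fold change −2.40 ± 0.11 SE, edgeR adjusted p = 1.42e-06). Hspb2, a muscle small heat shock protein, was at 130, 78.6 and 98.0 in WT and at 5.17, 4.81 and 4.81 in INSL3-KI (−4.33 ± 0.20, edgeR adjusted p = 1.46e-06). Its partner Hspb3 was almost absent, with 4 counts in all 3 INSL3-KI libraries together against 2126 in WT. Scaled for library totals, the ratio of summed counts was 470 (95% interval 183 to 1725, counting error only). Hspb1 fell from 776, 565 and 540 to 92.7, 89.8 and 90.7 CPM (−2.74 ± 0.16, edgeR adjusted p = 4.22e-06) and Hspb8 from 468, 441 and 416 to 128, 162 and 146 (−1.56). All 5 genes had separate groups, whereas Hspb6 (HSP20), at 122, 129 and 97.3 in WT and 145, 208 and 184 in INSL3-KI, went the other way without a call (0.67).

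The inducible HSP70 genes rose in the same tissue. Hspa1a went from 36.8, 42.1 and 28.2 CPM in WT to 91.8, 139 and 87.4 in INSL3-KI (log2 fold change 1.61 ± 0.22 SE, edgeR adjusted p = 0.000442), and Hspa1b from 46.6, 53.4 and 39.3 to 124, 165 and 136 (1.65 ± 0.16, edgeR adjusted p = 6.09e-05). The lowest INSL3-KI library was above the highest WT library for both genes. In a fit of all gubernaculum groups, with the spread of all of them pooled, neither passed (1.57 at an adjusted p of 0.068 and 1.61 at 0.032, edgeR). Hspa1l, their neighbour, fell (−2.02), and so did the inducible partner Hsph1, at 76.4, 63.2 and 66.0 in WT and 23.8, 26.9 and 27.1 in INSL3-KI (−1.36 ± 0.11, edgeR adjusted p = 3.11e-05). Hsp90aa1 was lower by less than 2-fold (−0.92, edgeR adjusted p = 0.000388). Hspa2 rose from 16.4, 13.7 and 9.01 to 70.1, 109.7 and 84.9 (2.80 ± 0.25, edgeR adjusted p = 4.61e-05). The other genes that fell were Hsf2bp (−4.16), Hsf2 (−1.69), Hspa4l (−1.10) and Hspa8 (−1.08), of which the last pair were under 2-fold with library size only (−0.78 and −0.76). The summed striated muscle markers were at 44124 to 48305 CPM in WT and 732 to 1274 in INSL3-KI, with 10 of 10 called lower (median log2 fold change −9.53), and the smooth muscle markers at 946 to 1287 and 14145 to 17668. Adipocyte markers were at 0.60 to 2.07 CPM in WT and 280 to 406 in INSL3-KI, and epithelium markers at 19.1 to 49.4 and 728 to 871. Spermatogonium markers were at 39.8 to 56.4 and 220 to 264. Macrophage, fibroblast and endothelium sums were lower in every INSL3-KI library than in any WT library. The part of these cell types in the heat shock values was not tested.

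In the INSL3-KO gubernaculum at P8, set against the same WT libraries but in the other table, 2 of 32 genes tested were called higher and 10 lower, where 15.5% and 15.2% of all genes were (median log2 fold change −0.71 beside 0.03 over all genes). Hspb7, at 33.7, 39.4 and 36.9 CPM, and Hspb1, at 109, 114 and 107, fell to levels near those in INSL3-KI (−2.59 and −2.51). Hspb2, at 18.8, 20.3 and 19.7, and Hspb3, at 6.73, 7.33 and 7.62, kept more of the WT level (−2.38 and −1.61). Both genes were above every INSL3-KI library and below every WT library; for Hspb2 the length that counts and FPKM imply was 1.25 times as long in the second table as in the first (beside a median of 1.02 over the members), so gene model and genotype cannot be told apart for it. Hspa1a, at 30.0, 32.5 and 29.9, and Hspa1b, at 44.7, 44.6 and 40.4, overlapped WT (−0.21, edgeR adjusted p = 0.226, and −0.11, edgeR adjusted p = 0.458, the latter 0.06 with library size only). Hsp90aa1 (−0.10, edgeR adjusted p = 0.353; 0.07 with library size only) and Hsph1 (−0.33, edgeR adjusted p = 0.0143) did not pass either. The summed striated muscle markers were at 9158 to 9869 CPM in INSL3-KO, between INSL3-KI and WT. The adipocyte markers were at 543 to 568 and the epithelium markers at 473 to 524, both above WT. Their part in these values was not tested.

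Hspa2 rose in INSL3-KO as well (1.61 ± 0.20 SE, edgeR adjusted p = 0.000327), and Hspe1 rose from 62.5, 45.2 and 45.4 CPM to 109, 125 and 114 (1.18 ± 0.14, edgeR adjusted p = 0.000224), where INSL3-KI had 33.9, 28.9 and 36.0. The Hspe1 values of the 3 genotypes did not overlap. Hspd1, which shares the promoter stretch printed above, was at 268, 260.3 and 260.4 in INSL3-KO against 279, 244 and 237 in WT, with overlapping groups. The remaining genes that fell were Hsf2bp (−1.87), Hspa1l (−1.56), Hspb8 (−1.25), Hsf1 (−1.21), Hsp90ab1 (−1.17) and Hspb9 (−3.60), the last at no more than 2.18 CPM in any of these libraries and without a call whenever any library was left out (edgeR adjusted p from 0.0123 to 0.0340).

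Between the mutants, 3 of 31 genes tested were called higher in the INSL3-KI than in the INSL3-KO gubernaculum at P8 and 7 lower, where 11.9% and 10.5% of all genes were. The higher ones were Hspa1a (1.78 ± 0.18 SE, edgeR adjusted p = 0.000153), Hspa1b (1.72 ± 0.12, edgeR adjusted p = 3.13e-05) and Hspa2 (1.15 ± 0.15, edgeR adjusted p = 0.000566). The lower ones were Hspb3 (−7.50), Hsf2bp (−2.33), Hspb2 (−1.99), Hspe1 (−1.81), the endoplasmic reticulum HSP70 Hspa5 (−1.24), Hspb11 (−1.18) and Hsph1 (−1.07). In a fit of all gubernaculum groups 0 genes were called higher, with Hspa1a at 1.78 (edgeR adjusted p = 0.0446), Hspa1b at 1.71 (edgeR adjusted p = 0.0248) and Hspa2 at 1.15 (edgeR adjusted p = 0.0506).

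**Figure D4:**
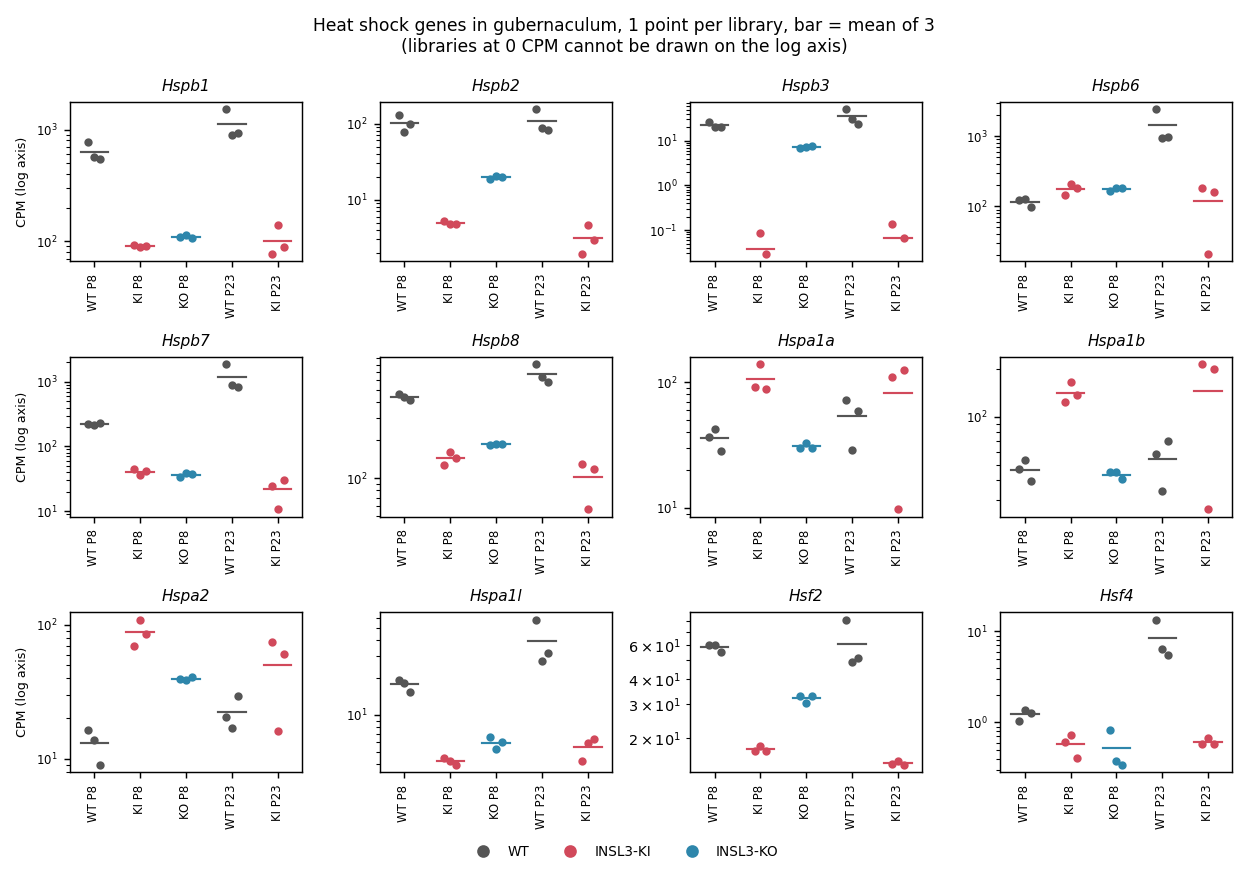
Normalised CPM (log axis) of 12 heat shock genes in each gubernaculum library, with 1 point per library and a bar at the mean of 3; libraries at 0 CPM are not drawn. Hspb1, Hspb2, Hspb7 and Hspb8 were below WT in every mutant library, while Hspa1a and Hspa1b were above WT in the 3 INSL3-KI libraries at P8 and in only 2 of 3 at P23.

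At P23, 0 of 31 heat shock genes tested were called higher in the INSL3-KI gubernaculum by edgeR (4 at an unadjusted p under 0.05, and 0 by DESeq2) and 6 were lower (11 at an unadjusted p under 0.05, and 10 by DESeq2), where 0.212% and 2.35% of all genes were (median log2 fold change 0.08 beside 0.11 over all genes). In WT, Hspb6 rose 12.5-fold from P8 to P23, and with Hspb7 (log2 fold change 2.43) and Hsf4 (2.77) it made up the 3 of 31 genes tested that rose, where 6.17% of all genes did, while Hsp90aa1 (−1.39) and Hsp90b1 (−1.05) fell, where 4.34% did. The other muscle forms were not called with age in WT, at 0.67 (Hspb3), 0.61 (Hspb8) and 0.08 (Hspb2). Leaving out any of the 3 WT libraries at P8 left 0 calls in either direction. In INSL3-KI Hspb7 was at 24.7, 10.6 and 30.5 CPM against 1871, 903 and 827 in WT, 54.3-fold lower (−5.76 ± 0.64 SE, edgeR adjusted p = 0.00613), and Hspb2 at 1.93, 4.59 and 2.96 against 157, 87.4 and 82.3 (−5.11 ± 0.46, edgeR adjusted p = 0.00362). Neither gene came near the WT range. Hspb3 had 8 counts in the 3 INSL3-KI libraries against 3018 in WT, a ratio of 392 in summed counts scaled for library totals (95% interval 199 to 908, counting error only). Hspb1, at 77.0, 139 and 88.3 against 1533, 898 and 931, fell as well (−3.47 ± 0.38, edgeR adjusted p = 0.00597), as did Hsf4 (−3.78) and Hsf2 (−2.02). The summed striated muscle markers were at 945, 28.9 and 632 CPM in INSL3-KI against 64502 to 113937 in WT at P23. Their part in these values was not tested.

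The inducible HSP70 genes were split among the INSL3-KI gubernacula at P23. Hspa1a was at 110.4, 9.73 and 125 CPM against 72.1, 29.0 and 59.1 in WT (0.63, edgeR adjusted p = 0.639), and Hspa1b at 213, 26.2 and 198 against 58.3, 34.2 and 70.7 (1.44, edgeR adjusted p = 0.237). Replicate 2 lay below the WT range for both genes and the other replicates above it. Hspb6 was at 184, 20.9 and 158 against 2467, 936 and 973 (−3.58, edgeR adjusted p = 0.0552), and Hspb8 at 130, 56.7 and 118 against 805, 635 and 584 (−2.72, edgeR adjusted p = 0.013). Both were lower in every INSL3-KI library and did not pass the test. Hsp90aa1 (0.76, edgeR adjusted p = 0.0467) and Hsph1 (0.45, edgeR adjusted p = 0.15) were not called. Without replicate 2, whose adipocyte marker sum was 6122 CPM against 2923 and 204, 0 genes were called higher and 5 lower, Hspb3 (−8.45), Hspb2 (−5.51), Hspb7 (−5.48), Hspb1 (−3.80) and Hspb8 (−2.48). Leaving out any of the other 5 libraries left 0 calls by edgeR. The interaction of the INSL3-KI effect with age was called by edgeR for 4 of 32 genes, all with a higher value at P23, where 0.0874% of all genes were higher and 0.194% lower. These calls did not hold with the replicate number in the fit or when certain single libraries were left out. DESeq2 called genes in both directions. INSL3-KI replicate 2 at P23 enters the interaction.

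In WT mice at P8, 7 of 32 genes tested were higher in the gubernaculum than in the testis and 0 lower by edgeR (4 lower at an unadjusted p under 0.05, and 0 by DESeq2), where 14.1% and 14.3% of all genes were. They were Hspb3, Hspb2, Hspb7, Hspb8, Hspb6, Hspa1l and Hspb1, with log2 differences of 7.93, 6.11, 5.68, 4.34, 4.08, 2.05 and 2.02. All 5 muscle small heat shock proteins were thus among them. In the testis, Hspb6 and Hspb7 had risen from P8 to P40 in WT, and Hspb7 fell from 53.1, 53.4 and 39.4 to 8.17, 6.46 and 6.31 CPM in INSL3-KI at P40.

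Among the factors, Hsf2 was called lower in 5 comparisons with WT and Hsf1, the factor of the heat response, in 1. Hsf1 was at 58.4, 64.1 and 60.9 CPM in WT and 69.9, 51.3 and 48.0 in INSL3-KI testes at P40, with overlap (−0.07 ± 0.15 SE, edgeR adjusted p = 0.682; 0.54 with library size only). In the testis at P23 it was −0.42 in INSL3-KO (edgeR adjusted p = 0.000241; 0.22 with library size only) and 0.57 in INSL3-KI (edgeR adjusted p = 0.00854; −0.68 under the Sertoli scaling), and at P8 0.15 in INSL3-KI (edgeR adjusted p = 0.41; −0.09 under the Sertoli scaling) and −0.10 in the libraries labelled INSL3-KO (0.02 with library size only). In the gubernaculum it was −0.58 (INSL3-KI, P8), −1.21 (INSL3-KO, P8, called) and −0.50 (INSL3-KI, P23). Hsf2, a factor active in development and in germ cells, was at 64.1, 66.1 and 50 in WT and 22.9, 22.3 and 21.2 in INSL3-KI testes at P40, and at 60.0, 59.7 and 55.2 against 17.1, 18.2 and 17.3 in the gubernaculum at P8. These groups were separate. Hsf2 was called lower in both, in both mutants in the testis at P23, and in INSL3-KI gubernaculum at P23, but in the testis it was under 2-fold with library size only. Hsf5, a factor of meiotic germ cells, went from 413, 399.5 and 395 in WT testes at P23 to 4.51, 5.43 and 3.70 in INSL3-KO. Hsf4, best known from the lens, was under 1 CPM in every testis library, and Hsf3 under 2 CPM in all libraries.

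**Figure D5:**
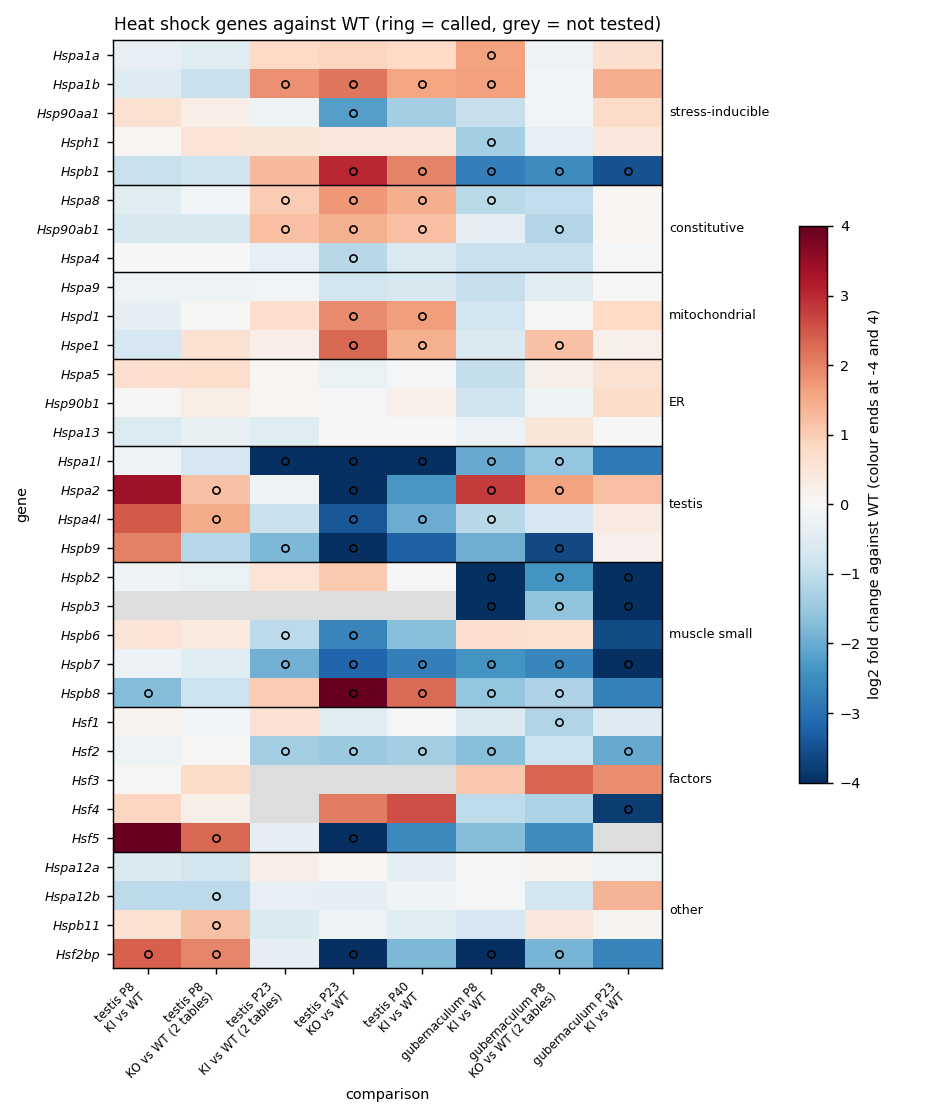
Log2 fold change against WT (colour, ending at −4 and 4) of 32 heat shock genes (rows, by role) in 8 comparisons (columns), with a ring where a gene was called and grey where it was not tested; "2 tables" marks comparisons across the 2 count tables. Hspa1l and Hspb9 were below WT in testes at P23 and P40, Hspb2, Hspb3, Hspb7 and Hspb8 were below WT in the gubernaculum, Hspb6 was above WT there at P8, and the inducible Hspa1a and Hspa1b above WT with a ring in the gubernaculum of INSL3-KI at P8; under the Sertoli scaling most of the higher values in testes at P23 and P40 were negative.

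The partners of the heat shock proteins were also mixed. Of 16 cytosolic co-chaperones and heat-responsive genes, 4 rose and 3 fell in INSL3-KI testes at P40, where 25.6% and 22.1% of all genes did, and their median log2 fold change was −0.15. Those that rose were Serpinh1, the collagen chaperone HSP47 (2.50), Cryab (1.57), Chordc1 (1.34) and Hikeshi, the nuclear import carrier of HSP70 (1.02), and those that fell were the J-domain proteins Dnajb4 (−2.39) and Dnajb1 (−2.08), and Hsbp1, which binds HSF1 (−1.64). Under the Sertoli scaling none of the former was called higher, with Serpinh1 at 0.22, Cryab at −0.70, Chordc1 at −0.91 and Hikeshi at −1.25. In INSL3-KO at P23, 4 rose (Serpinh1, Cryab, Hikeshi and Chordc1 at 2.94, 2.05, 1.33 and 1.09) and 4 fell (Dnajb1, Dnajb4, Hsbp1 and Fkbp4 at −2.98, −2.75, −2.10 and −1.10), where 31.1% and 33.4% of all genes did. The Sertoli-scaled values of those that rose were 0.25 (Serpinh1), −0.63 (Cryab), −1.36 (Hikeshi) and −1.60 (Chordc1). In INSL3-KI at P23, 2 rose (Serpinh1 and Chordc1 at 2.49 and 1.04) and 1 fell (Dnajb4 at −2.07), where 8.81% and 11.8% of all genes did. Neither of the former was called under the Sertoli scaling (1.13 for Serpinh1, edgeR adjusted p = 0.0136, and −0.29 for Chordc1). Dnajb1, a standard HSF1 target in heated cells, rose in WT testes from P8 to P40 (2.86), as did Dnajb4 (2.59), Hsbp1 (2.20), Fkbp4 (1.46) and St13 (1.27), while Serpinh1 (−4.86), Cryab (−2.17) and Hikeshi (−1.40) fell, where 31.9% and 27.8% of all genes rose and fell. At P8 the testis had 0 calls higher and 1 lower in either mutant (Serpinh1 at −1.81 in INSL3-KI and −1.41 in the libraries labelled INSL3-KO), where 3.25% and 8.37% of all genes were lower.

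In the gubernaculum 0 of the 16 rose and 4 fell in INSL3-KI at P8 (Cryab at −3.23, Dnajb4 at −1.51, Stip1 at −1.20 and Cacybp at −1.09), where 14.4% and 9.7% of all genes did. Another 2 rose and 3 fell in INSL3-KO (Ptges3 at 1.33, Hikeshi at 1.06, Cryab at −1.29, Stip1 at −1.22 and Cdc37 at −1.02), where 15.5% and 15.2% did. At the later age 1 fell in INSL3-KI at P23 (Cryab at −4.85), where 2.35% did. Cryab lies head to head with Hspb2, and the annotated genes overlap by 1029 bases, so without a known strand setting the reads of the pair cannot be told apart. Dnajb1 and Bag3 were at −0.37 and 0.04 in INSL3-KI gubernacula at P8, without a call. The activity of HSF1 was not measured. Of 11 endoplasmic reticulum folding genes, 1 rose and 2 fell in INSL3-KI testes at P40 (Pdia4 at 1.21, Creld2 at −2.14, Dnajb9 at −1.02), where 25.6% and 22.1% of all genes did. In INSL3-KO testes at P23, 1 rose and 2 fell (Pdia4 at 1.17, Creld2 at −2.71, Sdf2l1 at −2.47), where 31.1% and 33.4% did. In the INSL3-KO gubernaculum at P8, 3 rose (Sdf2l1 at 1.25, Manf at 1.18, Dnajb9 at 1.13), where 15.5% did. In testes of INSL3-KI at P23 Creld2 fell (−1.25), where 11.8% of all genes did. In the P8 testis libraries labelled INSL3-KO, Sdf2l1 (1.46) and Manf (1.08) rose, where 5.44% of all genes did. Pdia4 was negative under the Sertoli scaling at P40 (−1.07) and in INSL3-KO at P23 (−1.52). Creld2 at P23 in INSL3-KI (−2.41, edgeR adjusted p = 0.015) and Manf at P8 (0.69, edgeR adjusted p = 0.0262) were not called under it. Of 6 mitochondrial proteostasis genes, Lonp1 rose in testes of INSL3-KI at P40 (1.34) and of both mutants at P23 (1.79 in INSL3-KO, with Clpp at 1.11, and 1.07 in INSL3-KI), with Sertoli-scaled values below 0 for each (−0.94 at P40, −0.89 in INSL3-KO and −0.31 in INSL3-KI at P23, and −1.58 for Clpp). Afg3l2 fell in the INSL3-KO gubernaculum (−1.06). The shares of all genes called are those given above for each comparison. Cirbp and Rbm3, which are induced by mild cold, had 0 calls in INSL3-KI testes at P40. In INSL3-KO testes at P23 Cirbp fell (−1.11), while Rbm3 was higher by less than 2-fold (0.48, edgeR adjusted p = 0.000113).

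Hspa14, a ribosome-associated HSP70, could be compared only within a table. It was not called in INSL3-KI testes at P40 (0.74) or P8 (−0.11), in INSL3-KO testes at P23 (0.96), or in the INSL3-KI gubernaculum at P8 (−0.53) or P23 (0.29), and it fell in WT testes from P8 to P40 (−1.18). Hspa5, Hspa9, Hsp90b1 and Hspa13 were not called in any comparison of a mutant with WT, and neither were Hspa12a and Hsf3.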

How the data were processed

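The authors extracted RNA with TRIzol, made mRNA libraries and sequenced them as 150-base pairs on an Illumina NovaSeq; the submitters' processing notes name GRCm38 and HISAT2. The counting program and its strand setting are not given in the sources used here. The authors deposited read counts per gene, not normalised, and FPKM values (per length and library size) in 2 tables, joined here on Ensembl identifiers.

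Counts were tested with edgeR 4.0.16 (TMM factors, filterByExpr with its minimum count at 10 and minimum total count at 15, quasi-likelihood F-test, only the groups compared in each fit) in R 4.3.3. Adjusted p-values are Benjamini-Hochberg values over every gene in a fit. A call required an adjusted p below 0.01 and a fold change of at least 2. Levels are CPM with TMM factors computed within a tissue, and the FPKM values served for shares within a library. limma 3.58.1 on log2(FPKM + 1) and log2(FPKM + 0.1), DESeq2 1.42.0, library size only, no filter, 1 fit of all groups of a tissue, scaling to 9 Sertoli cell genes, a replicate block and leaving out each library were the alternatives. Steps were tested on simulated data. Named with values were every called member, every stress-inducible member and Hsf1 in each comparison with WT, and called genes of the partner lists. The members and lists were chosen with earlier results of these data known. Group labels came from the sample titles. Promoters came from RefSeq (GRCm38.p6) and gene positions from GENCODE. Depth was 29861447 to 45260372 counts per library, and intervals on summed counts are exact and cover counting error only.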

Additional observations from a re-analysis of the deposited data

Results flagged for a closer look

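The effect of the INSL3-KI allele differed between ages for 20 gene and tissue pairs by the interaction term of an edgeR quasi-likelihood fit (adjusted p below 0.01 and a difference of at least 2-fold), and the values below are the later minus the earlier log2 fold change against WT. In the testis (P40 minus P8) the effect was lower at P40 for Hsf5 (−7.76), Hspa1l (−7.49), Hspa2 (−5.79), Hspa4l (−4.51), Hsf2bp (−4.29), Hspb7 (−2.59), Hsp90aa1 (−2.04), Hsf2 (−1.26) and Hspb11 (−1.16). It was higher at P40 for Hspb8 (3.93), Hspb1 (2.79), Hspe1 (2.01), Hspa1b (2.0), Hspd1 (1.98), Hspa8 (1.84) and Hsp90ab1 (1.75). The libraries that stood apart by spermatocyte markers, INSL3-KI replicate 2 at P8 and replicate 1 at P40, enter these values. In the gubernaculum (P23 minus P8) it was higher at P23 for Hsph1 (1.78), Hsp90aa1 (1.66), Hspa5 (1.52) and Hspa4l (1.42). Hsph1 and Hspa4l had fallen at P8 and did not pass the test at P23. INSL3-KI gubernaculum replicate 2 at P23, which stood apart by smooth muscle markers, enters these gubernaculum values.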

How the results depend on the processing

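Counts are of heat shock genes called higher and lower, and shares over all genes were not computed for the alternatives. With DESeq2, INSL3-KI testes at P40 had 10 lower, those at P8 2 and 2, INSL3-KI gubernacula at P23 10 lower, and the gubernaculum interaction with age 7 and 3. With library size only, the counts were 2 lower (INSL3-KI testis, P40), 5 and 3 (INSL3-KI testis, P23), 0 lower (testis at P8, INSL3-KI and also the libraries labelled INSL3-KO), 2 lower (WT gubernaculum against testis) and 1 higher (gubernaculum interaction). In 1 fit of all groups of a tissue they were 10 lower (INSL3-KI testis, P40), 3 lower (P23), 4 and 2 (P8), 3 higher (P8, libraries labelled INSL3-KO), 1 higher (INSL3-KI gubernaculum, P8), 0 higher (INSL3-KI against INSL3-KO gubernaculum) and 10 lower (INSL3-KI gubernaculum, P23). With limma on log2(FPKM + 1) they were 6 and 2 (INSL3-KI testis, P23), 0 lower (P8, both mutants) and 4 lower (INSL3-KI against INSL3-KO gubernaculum), and with a pseudocount of 0.1 11 higher (INSL3-KO testis, P23), 6 and 3 (INSL3-KI testis, P23), 2 higher (INSL3-KI, P8) and 0 lower (P8, libraries labelled INSL3-KO). Scaled to the Sertoli list they were 0 and 22 (P40), 1 and 23 (INSL3-KO, P23), 0 higher (INSL3-KI, P23), 16 and 1 (INSL3-KI against INSL3-KO, P23), 2 lower (INSL3-KI, P8), and 3 and 6 (P8, libraries labelled INSL3-KO), and it shifted the median of all genes by −0.28 and −0.41 in the 2 comparisons at P8, −1.20 in INSL3-KI at P23 and 1.37 between the mutants. The causes were not tested.

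Same-numbered replicates did not pair, since 0 of 13 comparisons had every correlation of deviations over 0.1 (range −0.17 to 0.41), and 15 of 39 libraries correlated best with their own number. The replicate block gave 0 and 2 in INSL3-KI testes at P23, 0 and 0 at P8, 0 lower in INSL3-KI gubernacula at P23, 1 and 0 in WT gubernacula with age and 0 higher for the gubernaculum interaction, and moved 8 of 30 counts by over 1.5 times.

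Leaving out 1 library in turn gave 4 to 7 higher and 3 to 10 lower in INSL3-KI testes at P40, 7 to 8 and 11 to 11 in INSL3-KO at P23, 0 to 3 and 0 to 5 in INSL3-KI at P23, 7 to 10 and 2 to 4 between the mutants at P23, 0 to 4 and 0 to 1 in INSL3-KI at P8, and 4 to 5 and 0 to 1 in the P8 libraries labelled INSL3-KO. In the gubernaculum it gave 3 to 3 and 11 to 13 (INSL3-KI, P8), 2 to 2 and 9 to 10 (INSL3-KO, P8), 2 to 3 and 5 to 7 (between the mutants) and 0 to 0 and 0 to 5 (INSL3-KI, P23). It gave 9 to 9 and 8 to 9 for WT testes with age, 0 to 3 and 0 to 1 for WT gubernacula with age, 7 to 8 and 0 to 0 for WT gubernaculum against testis, 7 to 8 and 7 to 11 for the testis interaction and 0 to 7 and 0 to 2 for the gubernaculum interaction.

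Signs turned as follows. In INSL3-KI testes at P40, Hsf1 was 0.54 (library size) and 0.52 and 0.54 (limma, pseudocounts 1 and 0.1), and ran from −0.22 to 0.029 when 1 library was left out, and scaled to the Sertoli list Hspb1 was −0.30, Hspa8 −0.81, Hsp90ab1 −1.08, Hspd1 −0.60, Hsph1 −1.79, Hspb8 −0.028, Hspe1 −0.86, Hspa1b −0.70 and Hspa1a −1.48. In INSL3-KO testes at P23, Hsf1 was 0.22, 0.22 and 0.23 (library size and limma), and under the Sertoli scaling Hspa8 was −0.94, Hsp90ab1 −1.26, Hspd1 −0.80, Hsph1 −2.24, Hspe1 −0.38, Hspa1b −0.55 and Hspa1a −1.81. In INSL3-KI testes at P23, Hsp90aa1 was 0.27, 0.32 and 0.32 (library size and limma), and under the Sertoli scaling Hspb1 was −0.21, Hspa8 −0.32, Hsf1 −0.68, Hsp90ab1 −0.15, Hsph1 −0.78 and Hspa1a −0.59. Hspd1 was 0.079 between the mutants at P23 (Sertoli scaling). At P8 in testis, Hsf1 was −0.094 and Hsph1 −0.19 (INSL3-KI, Sertoli scaling), Hsph1 ran from −0.041 (without INSL3-KI replicate 2) to 0.14, and in the libraries labelled INSL3-KO Hsf1 was 0.022 (library size) and ran from −0.16 to 0.0022 (without WT replicate 1), and Hsp90aa1 was −0.076 (Sertoli scaling). In INSL3-KO gubernacula, Hsp90aa1 was 0.072 (library size) and 0.061 (limma, both pseudocounts), and Hspa1b was 0.063 (library size), 0.060 and 0.064 (limma, pseudocounts 1 and 0.1) and ran from −0.20 to 0.0095 (without WT replicate 2). Of the partner genes under the Sertoli scaling, an alternative chosen after seeing the data, Chordc1 was −0.91, Pdia4 −1.07, Cryab −0.70, Lonp1 −0.94 and Hikeshi −1.25 in INSL3-KI at P40, Chordc1 −1.60, Clpp −1.58, Pdia4 −1.52, Cryab −0.63, Lonp1 −0.89 and Hikeshi −1.36 in INSL3-KO at P23, and Chordc1 −0.29 and Lonp1 −0.31 in INSL3-KI at P23.

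Running the tests on all Ensembl genes of a table, also chosen after seeing the data, moved no count over 1.5 times. Groups of 3 limit precision, and low-count genes (Hspb9 and Hsf4 outside the testis and the P23 gubernaculum, Hsf3) could not show modest differences at this depth.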
